A study of Canis lupus familiaris with 39 samples.

Results

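The macrophage and myeloid genes described here are CSF1R, SPI1, CD68, AIF1, CD163, MRC1, MARCO, TYROBP, FCER1G and CD14. They were followed across 10 organs of healthy dogs on an Affymetrix canine expression array, on which each probeset is a group of short probes for 1 transcript. A probeset was taken as a member when its only gene symbol in the array's probe table was on this list, which gave 18 probesets of 10 genes, among 42860 probesets and 15115 genes in all. The 39 arrays comprised 4 each of brain (cerebrum), heart, jejunum, kidney, liver, lung, peripheral lymph node, skeletal muscle and spleen, and 3 of pancreas. All tissue was untreated and pathologically normal. The donors were beagles and mixed breed dogs of both sexes, from puppy to adult, and every organ was taken from each dog. The labels number the arrays of an organ but do not tie a number to a dog, so age, sex and breed cannot be assigned to an array.

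Macrophages settle in nearly every organ and take on its work. In spleen they clear aged red cells and recycle their iron, in liver (Kupffer cells) they filter portal blood, in lung they patrol the alveoli, in lymph node they line the sinuses, and in brain they are the microglia. Their growth and survival depend on signals through CSF1R, and SPI1 (PU.1) is the transcription factor that sets up the myeloid lineage. The other members are proteins these cells use to recognise, take up and digest material, or to pass on signals from their receptors. Several members are shared with other cells, among them monocytes, neutrophils, mast cells and sinusoid endothelium. Whole organs were measured, so fewer cells of a type and less RNA per cell cannot be told apart.

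Values are log2 signals, so a difference of 1 is a factor of 2, and they ran from 2.61 to 14.74 with array medians between 3.95 and 4.11. A value near 4 is therefore the level of most probesets on the array. A gene is described by its probeset with the highest mean over the 39 arrays. Each organ was compared with the mean of the other 9 organs in a linear model over all probesets (limma), and a gene was called higher or lower at a Benjamini-Hochberg adjusted p under 0.001.

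Of 35 marker genes of the organs, 34 were higher in their own organ, where 6.94% to 12.4% of all genes were. The exception was the B cell gene CD79A in spleen. The markers were chosen with earlier results of these data known, so this count is a description and not a test. For each of the 39 arrays, the array most like it came from the same organ. Lung arrays 1 and 3 were closer to each other than any other pair within an organ. Their difference over all probesets had an SD of 0.196, against 0.323 to 0.844 in the other 56 pairs. They also shared transcripts of hepatocytes. The lung values of ALB (albumin) were 11.04, 3.76, 11.09 and 3.55 on arrays 1 to 4, and those of TTR (transthyretin) were 7.58, 3.53, 7.73 and 3.54. By the study's methods the 4 lung samples came from different dogs. Lung results are therefore given also with the 2 arrays averaged as 1, and with both left out. Transcripts of another organ were also found elsewhere. The mean of 4 pancreas markers, 13.46 to 13.56 in pancreas, was 7.27, 3.59, 8.32 and 9.44 on skeletal muscle arrays 1 to 4. The mean of 4 skeletal muscle markers was 5.995, 3.97, 7.55 and 3.86 on brain arrays 1 to 4. The pancreas markers were also higher on brain array 3 and lymph node array 4 (5.93) than on the other arrays of those organs. The part of these transcripts in the results was not tested, and the skeletal muscle count is given also without arrays 1, 3 and 4. Skeletal muscle array 1 stood furthest from its own organ, with the lowest correlation within an organ (r = 0.8885).

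All 10 genes differed between the organs (moderated F test, limma), where 60.9% of all genes did. Spleen carried the highest mean for 7 of them, and MRC1 was highest in lung, MARCO in lymph node and CD14 in liver. Against the mean of the other 9 organs, 8 of the 10 were higher in spleen, where 6.94% of all genes were. In liver 5 were higher (background 7.81%), in lymph node 5 (12.4%) and in lung 4 (8.59%, and 3 with lung arrays 1 and 3 averaged). None was lower in these 4 organs, where 5.76%, 7.09%, 8.2% and 5.06% of all genes were. None of the 10 was higher in brain (background 12.3%), heart (8.24%), jejunum (8.15%), kidney (8.92%), pancreas (11.9%) or skeletal muscle (7.77%). The median difference of the 10 genes was 3.17 in spleen, 1.95 in liver, 1.31 in lymph node and 0.77 in lung, while the median of all genes lay between -0.08 and -0.02 in every organ.

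**Figure D1:**
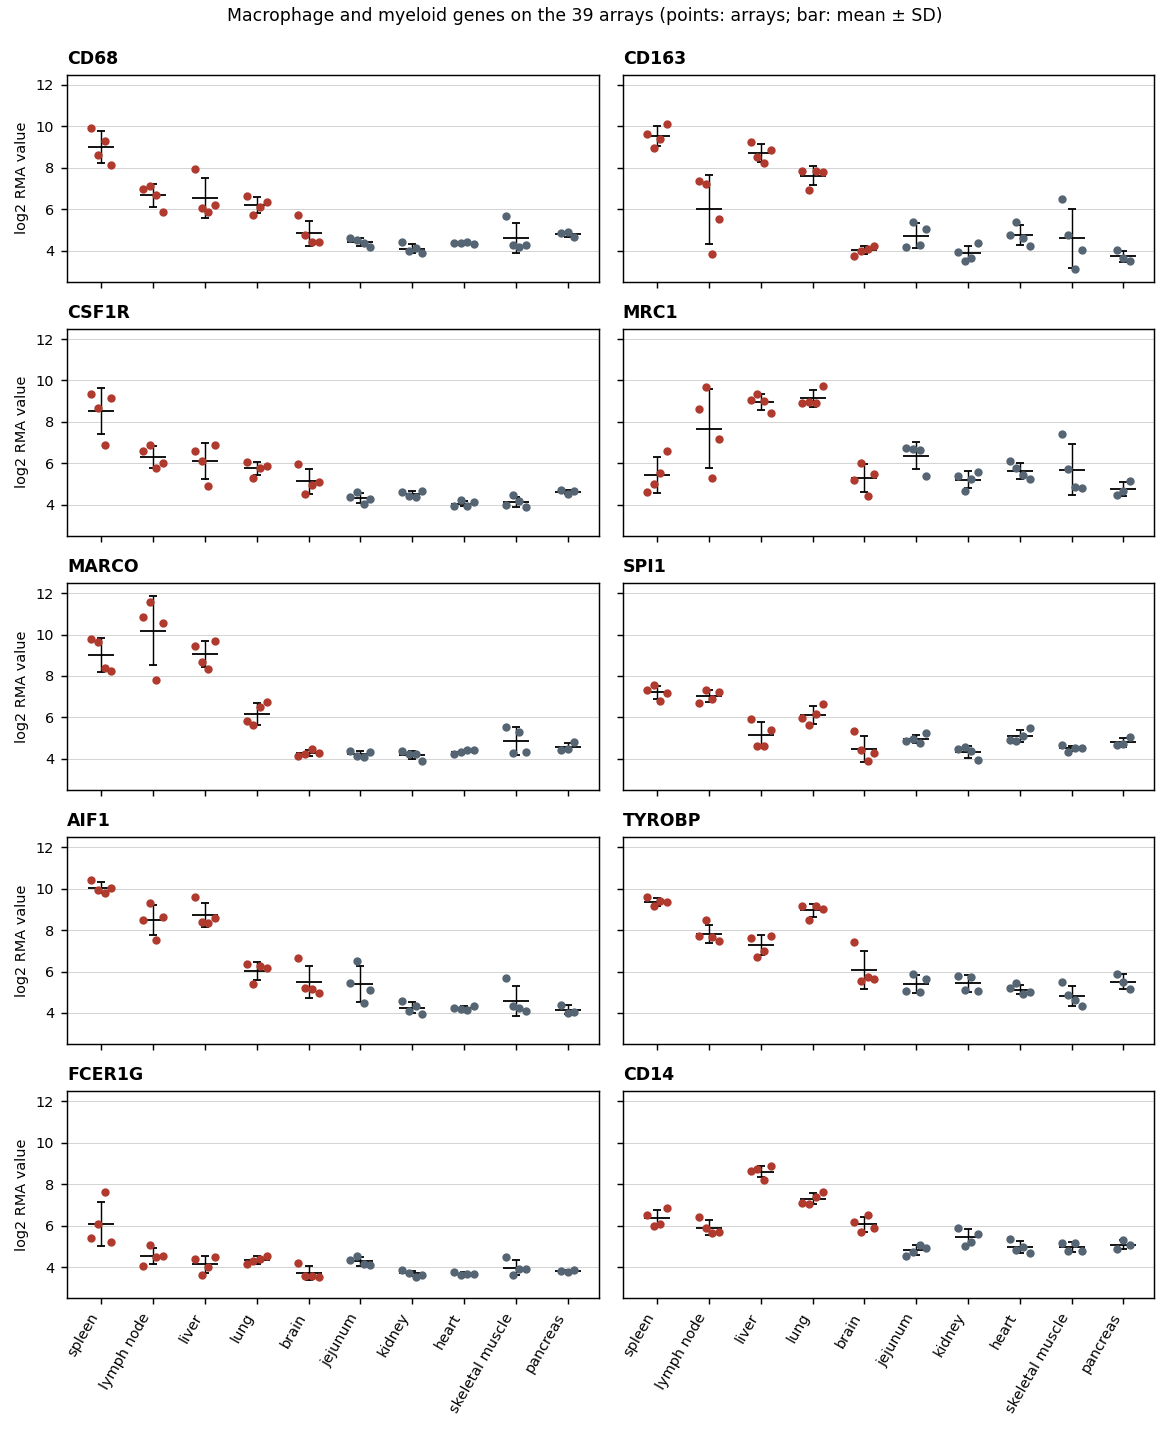
Log2 signal (vertical axis) of the 10 macrophage and myeloid genes on the 39 arrays by organ (horizontal axis). Points are arrays in the order of their numbers, with spleen, lymph node, liver, lung and brain in red and the other organs in grey, and the black bar is the mean ± SD (n = 4, pancreas n = 3). Spleen is highest for 7 genes, and MRC1 peaks in lung and liver with a spleen mean of 5.44.

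CSF1R is the receptor through which the growth factors CSF1 and IL34 keep macrophages alive. Its values were 9.34, 8.66, 6.89 and 9.17 on the 4 spleen arrays and 6.62, 6.90, 5.77 and 6.0 in lymph node. All spleen arrays but array 3 lay above every lymph node array. Spleen exceeded the other organs by 3.52 ± 0.28 (log2 difference ± SE, 11.5-fold, adjusted p = 2.08e-11), and the step from spleen to lymph node was 2.19 (adjusted p = 9.9e-05). Liver (6.12 ± 0.88, mean ± SD, n = 4), lung (5.75 ± 0.33) and brain (5.12 ± 0.62) followed. Their neighbours in this order did not differ beyond the spread, and none was called against the other 9 on this probeset. On the second CSF1R probeset liver was called higher (1.57, adjusted p = 0.00098), while lung (-0.25) and brain (-0.32) were not called. Without spleen array 3, CSF1R in lymph node was called higher (1.02, adjusted p = 0.000534), against 1.08 (adjusted p = 0.00299) with it. Heart was lowest at 4.05 ± 0.13.

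SPI1 was highest in spleen (7.23 ± 0.31) and lymph node (7.03 ± 0.30), with array values of 7.33, 7.56, 6.81 and 7.20 in spleen and 6.69, 7.31, 6.87 and 7.24 in lymph node. These 2 groups overlapped, and their difference of 0.20 had a 95% interval from -0.34 to 0.74. Both were called higher than the other organs, spleen by 2.07 (4.18-fold, adjusted p = 8.7e-10) and lymph node by 1.84 (3.59-fold, adjusted p = 5.49e-09). Lung followed at 6.10 ± 0.44, a difference of 0.82 that was not called (adjusted p = 0.00193). In liver SPI1 stayed at 5.14 ± 0.64, and lymph node exceeded liver by 1.88 (adjusted p = 7.88e-07). The difference of liver from the other 9 organs was -0.25 (adjusted p = 0.414). SPI1 in lung passed the threshold when brain array 1 (0.85, adjusted p = 0.000396) or liver array 1 (0.85, adjusted p = 0.00053) was left out.

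CD68, a glycoprotein of the macrophage lysosome, was 9.90, 8.62, 9.27 and 8.13 on the spleen arrays. Every spleen array lay above every array of the other organs, which was so for 3 of the 10 genes (CD68, AIF1 and FCER1G) and for 0.668% of all genes in spleen. The spleen difference was 3.81 ± 0.28 (14.1-fold, adjusted p = 3.64e-12). Lymph node (6.66 ± 0.56), liver (6.52 ± 0.97) and lung (6.20 ± 0.39) formed a second level with no called difference among them. Lymph node was called against the other 9, by 1.24 (adjusted p = 0.000782), and liver was not (1.08, adjusted p = 0.00394). Both depended on the processing. On the second CD68 probeset liver was called (1.55, adjusted p = 9.65e-05) and lymph node was not (1.06, adjusted p = 0.00465), and liver was also called with the mean of the probesets (1.32, adjusted p = 0.000225) and with the replicate number as a block (1.09, adjusted p = 0.000149). The lymph node call was lost on leaving out any of lymph node arrays 1, 2 or 3 (1.13, 1.09 and 1.24, adjusted p = 0.00775, 0.0103 and 0.00432), and many single arrays of other organs moved its adjusted p to between 0.001 and 0.00108. Liver array 1 read 7.96, while the other liver arrays read 5.86 to 6.20. Outside these organs CD68 stayed between 3.90 and 5.71 on every array.

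AIF1 (IBA1) is a calcium-binding protein of the macrophage cytoskeleton and a common stain for microglia. It read 10.41, 9.95, 9.81 and 10.03 in spleen, 9.60, 8.38, 8.34 and 8.58 in liver, and 8.49, 9.31, 7.53 and 8.64 in lymph node. Spleen did not overlap with either, though its direct differences from liver and lymph node were not called (adjusted p = 0.0103 and 0.006), while liver and lymph node overlapped. Against the other organs the difference was 4.34 in spleen (20.3-fold, adjusted p = 3.24e-13), 2.87 in liver (7.3-fold, adjusted p = 1.34e-09) and 2.61 in lymph node (6.1-fold, adjusted p = 1.18e-08). The next organ down was lung at 6.05 ± 0.44, below lymph node by 2.45 (adjusted p = 1.13e-05). Lung and brain (5.51 ± 0.77) differed by 0.54, with a 95% interval from -0.25 to 1.33. AIF1 in lung did not differ from the other 9 organs (-0.11, adjusted p = 0.791), and this small value changed sign under a scaling on housekeeping genes (0.52).

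The uptake receptors did not share a pattern. CD163, which binds the haemoglobin and haptoglobin complex, was 9.64, 8.95, 9.37 and 10.09 in spleen, 9.25, 8.53, 8.21 and 8.84 in liver, and 7.87, 6.93, 7.85 and 7.82 in lung. Each liver array lay above each lung array, and liver overlapped with spleen. The difference from the other organs was 4.18 in spleen (18.2-fold, adjusted p = 1.53e-09) and 3.29 in liver (9.75-fold, adjusted p = 1.02e-07). In lung it was 2.08 (4.22-fold, adjusted p = 0.0002). The lung call was lost with lung arrays 1 and 3 averaged (2.0, adjusted p = 0.00223), with both left out (1.83, adjusted p = 0.0317), and without lung arrays 1 (1.99, adjusted p = 0.00221), 3 (2.0, adjusted p = 0.00224) or 4 (2.01, adjusted p = 0.00199). It was also lost without the pancreas arrays (1.85, adjusted p = 0.00134). On the other CD163 probesets lung was not called (0.94, 0.83 and 0.01, adjusted p = 0.00303, 0.0443 and 0.885), the last of them dim. Lymph node was uneven at 7.37, 7.22, 3.85 and 5.54, so that array 3 read at the level of brain and kidney.

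MRC1, the mannose receptor CD206, behaved in another way. It was 8.93, 8.96, 8.92 and 9.73 in lung and 9.06, 9.33, 8.99 and 8.44 in liver, whereas spleen read 4.61, 5.02, 5.51 and 6.61. All spleen arrays lay below all lung and liver arrays. MRC1 was called higher in lung by 3.02 (8.14-fold, adjusted p = 3.07e-06) and in liver by 2.82 (7.07-fold, adjusted p = 7.41e-06). Lung held with arrays 1 and 3 left out (3.23, adjusted p = 0.000452). Lung exceeded spleen directly by 3.70 (adjusted p = 2.64e-05) and liver exceeded spleen by 3.52 (adjusted p = 2.3e-05). Spleen ranked 7th of the organs at 5.44 ± 0.86, and the 95% interval of its difference from brain ran from -1.06 to 1.38. MRC1 was the only member called lower in spleen than in lung, and with CD14 it was called lower in spleen than in liver.

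MRC1 in lymph node read 8.61, 9.66, 5.27 and 7.17, and its difference from the other organs (1.40, adjusted p = 0.0145) was not called with all arrays. It was called without array 3 (2.21, adjusted p = 0.000123) and against the 5 organs poor in these genes (2.14, adjusted p = 0.000416). Those 5 organs are low in the members as a group, so a higher call against them is partly built in. The other 2 MRC1 probesets were called higher in lymph node with all arrays (1.28 and 1.41, adjusted p = 0.000452 and 0.000561). Jejunum was the next organ at 6.37 ± 0.65. The 3 probesets of MRC1 followed each other over the 39 arrays (r = 0.9498 and 0.9476 with the one described). In all 3 the spleen mean was below lung, liver and lymph node. Lung ranked first in 2 of the 3, and in the other the mean was 7.91 in liver and 7.60 in lung.

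**Figure D2:**
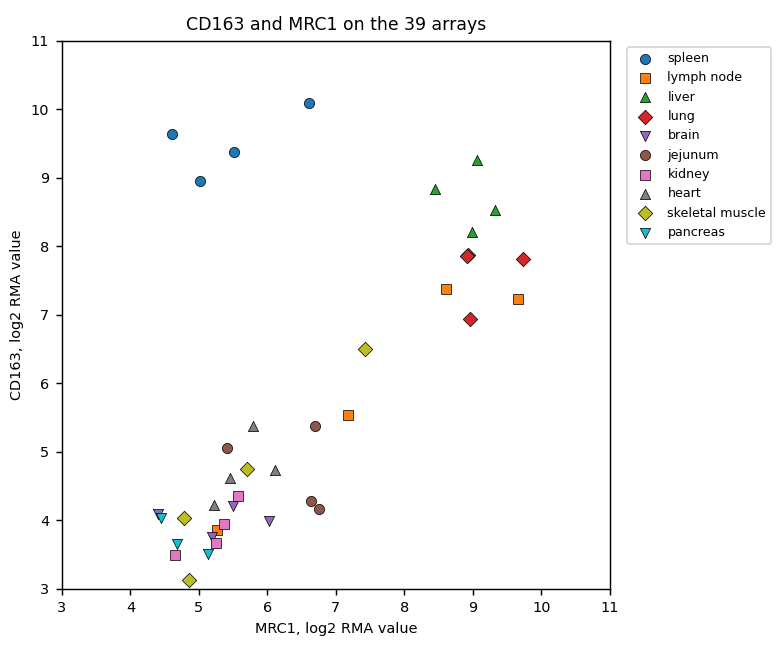
Log2 signal of CD163 (vertical axis) and MRC1 (horizontal axis) on the 39 arrays, with a point for each array and a colour and shape for each organ. The 4 spleen arrays sit apart at CD163 values of 8.95 to 10.09 and MRC1 values of 4.61 to 6.61, and lymph node array 3 lies with brain and kidney at 3.85 and 5.27.

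MARCO, a scavenger receptor for bacteria and particles, was 10.85, 11.58, 7.79 and 10.57 in lymph node, 9.44, 8.70, 8.34 and 9.68 in liver, and 9.76, 9.65, 8.41 and 8.22 in spleen. Liver and spleen overlapped, the lymph node arrays lay above both except array 3, and no difference among these 3 organs was called. They were called higher by 4.56 (23.6-fold, adjusted p = 5.5e-12), 3.28 (9.7-fold, adjusted p = 5.45e-09) and 3.24 (9.47-fold, adjusted p = 1.31e-08). Lung read only 5.83, 5.64, 6.49 and 6.76, below spleen by 2.83 (adjusted p = 4.33e-05) and below liver by 2.86 (adjusted p = 1.43e-05). Its difference from the other 9 organs was 0.10 (adjusted p = 0.843), a value so close to 0 that leaving out lung array 4 turned it to -0.094. In brain, heart, jejunum and kidney MARCO stayed between 3.92 and 4.47. Its second probeset gave the same highest organ (10.65 in lymph node) and a low lung mean (6.27).

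TYROBP (DAP12) is the adaptor that carries the ITAM signal of TREM2 and other receptors. It was 9.61, 9.15, 9.39 and 9.35 in spleen and 9.18, 8.49, 9.16 and 9.0 in lung. The 2 organs overlapped, with a difference of 0.41 and a 95% interval from -0.24 to 1.07. Both were called higher, spleen by 3.11 (8.6-fold, adjusted p = 8.27e-12) and lung by 2.64 (6.25-fold, adjusted p = 2.52e-10), and lung held with arrays 1 and 3 left out (2.43, adjusted p = 3.4e-06). Lymph node (7.82 ± 0.44) was higher by 1.38 (adjusted p = 2.41e-05). Liver (7.27 ± 0.48) was not called against the other 9 (0.76, adjusted p = 0.0164) and lay below lung by 1.69 (adjusted p = 0.000101), the reverse of AIF1 and MARCO, which were higher in liver than lung.

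FCER1G, the common gamma chain of Fc receptors, had a dim probeset, with organ means of 3.69 to 4.54 outside spleen, close to the array medians. In spleen it read 5.41, 6.09, 7.60 and 5.22, all above every other array. The difference of FCER1G in spleen was 2.06 (4.17-fold, adjusted p = 1.11e-08), and 1.55 (adjusted p = 2.45e-08) without spleen array 3, the highest. On that array CSF1R had its lowest spleen value, TREM2 (7.30) and the chemokine CCL3 (7.29) their highest, and the mean of the neutrophil list was 7.45 against 6.60 to 7.05. The T and NK cell list averaged 5.37 there against 6.68 to 7.10. The part of these cell types in the FCER1G value was not tested. No direct difference of FCER1G between any other organs was called.

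CD14, the co-receptor for bacterial lipopolysaccharide, was 8.63, 8.72, 8.22 and 8.87 in liver, and every liver array lay above all 35 arrays of other organs. Among all genes 1.99% did so in liver, and CD14 was the only member among the 10. The difference was 2.96 ± 0.16 (7.77-fold, adjusted p = 3.51e-16). Lung was second at 7.11, 7.04, 7.39 and 7.62, higher than the other organs by 1.49 (2.81-fold, adjusted p = 1.07e-08) and below liver by 1.32 (adjusted p = 1.29e-05). With lung arrays 1 and 3 left out the difference was 1.53 (adjusted p = 1.15e-05). Spleen (6.35 ± 0.41), brain (6.06 ± 0.35) and lymph node (5.91 ± 0.36) had no called difference among them. The genes most like CD14 were BTBD9 (r = 0.909 over 39 arrays), the steroid and lipid enzyme gene HSD17B11 (0.908) and the histidine breakdown gene AMDHD1 (0.888). All 3 were highest in liver and second in lung, with AMDHD1 at 10.27 and 7.34.

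**Figure D3:**
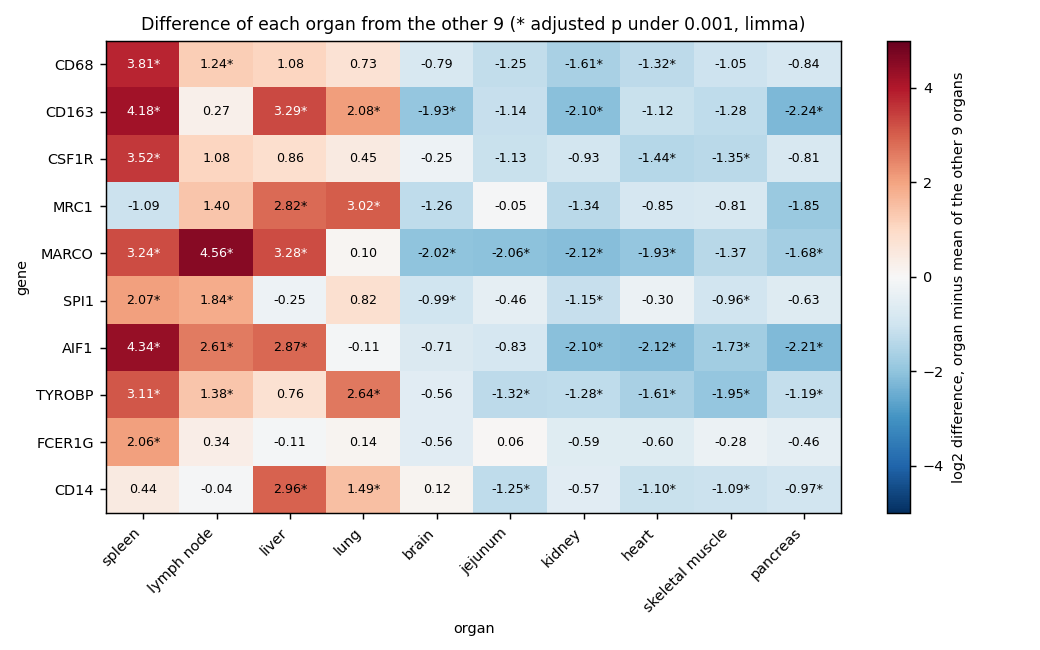
Log2 difference between an organ and the mean of the other 9 organs, by gene (rows) and organ (columns), with red for higher, blue for lower and a star where the adjusted p was under 0.001 (limma). Spleen has 8 starred genes, all higher, and the 6 organs from brain to pancreas have no gene called higher.

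Direct comparisons of the 5 organs named for their resident macrophages gave 52 calls among the 100 combinations of gene and organ pair, where the share over all genes was 15.5%. Spleen against lymph node had 5 calls, all higher in spleen (CD68, CD163, CSF1R, TYROBP and FCER1G), where 2.79% of all genes were, and none higher in lymph node (2.08%). Spleen against liver had 5 genes higher in spleen (CD68, CSF1R, SPI1, TYROBP and FCER1G, background 8.18%) and 2 higher in liver (MRC1 and CD14, background 7.18%). Spleen against lung had 5 higher in spleen (CD68, CSF1R, MARCO, AIF1 and FCER1G, background 2.73%) and MRC1 higher in lung (background 3.99%). CD163 also lay apart without overlap between spleen and lung, by 1.90, though the test did not call it (adjusted p = 0.0187).

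Liver against lung had 3 genes higher in liver (MARCO, AIF1 and CD14, background 6.65%) and TYROBP higher in lung (9.15%). Liver against lymph node had CD163 and CD14 higher in liver (7.9%) and SPI1 higher in lymph node (11.6%). Lung against lymph node had CD14 higher in lung (6.49%) and MARCO and AIF1 higher in lymph node (5.15%). These comparisons share their arrays and are not independent of each other.

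Brain ranked with the organs poor in these genes. The number of members called higher was 8 for spleen against brain (background 8.78%), 6 for liver (9.24%), 5 for lung (9.11%) and 5 for lymph node (12%). None was higher in brain, where 10%, 11.8%, 9.24% and 11% of all genes were. Against the other 9 organs together, 3 were lower in brain (background 9.77%). MARCO was lower by 2.02 (4.05-fold, adjusted p = 2.35e-05), CD163 by 1.93 (3.81-fold, adjusted p = 0.000308) and SPI1 by 0.99 (1.98-fold, adjusted p = 0.000142).
The calls for CD163 and SPI1 were lost on leaving out single brain arrays. Without array 2, 3 or 4 neither was called (CD163 adjusted p = 0.00198, 0.00164 and 0.0014, SPI1 0.00128, 0.00485 and 0.00205), and without array 1 CD163 was not called (adjusted p = 0.00275) while SPI1 was. The exception was CD14, which was called higher in brain than in heart (background 9.64%), jejunum (10.2%), pancreas (15%) and skeletal muscle (10.6%), while no member was called higher in brain than in kidney (8.97%). Set against the mean of heart, jejunum, kidney, pancreas and skeletal muscle, CD14 was the only member called higher in brain.

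The 4 brain arrays were not alike. AIF1 read 6.65, 5.23, 5.18 and 4.98, TYROBP 7.42, 5.52, 5.74 and 5.62, and FCER1G 4.20, 3.58, 3.58 and 3.51. Array 1 was also highest for CD68 (5.71), CSF1R (5.98) and SPI1 (5.34), but lowest for CD163 (3.76) and MARCO (4.15). The microglial receptor gene P2RY12 followed the same order at the top, with 8.30, 5.21, 4.02 and 4.91, as did the mean of the 3 complement C1q chains (9.43, 7.37, 7.50 and 7.73). The oligodendrocyte gene MBP was also highest on array 1 (9.48, 7.25, 6.69 and 6.72), while the neuronal gene SNAP25 was at 12.64 or above on all 4. The neutrophil list averaged 4.34 on array 1 and 4.35 to 4.54 on the others, and the T and NK cell list 3.88 against 3.71 to 3.76. The skeletal muscle markers averaged 5.995 on array 1, above arrays 2 (3.97) and 4 (3.86) and below array 3 (7.55). The part of tissue composition and of these muscle transcripts in the higher values of array 1 was not tested. Without brain array 1, TYROBP was called lower in brain (-1.01, adjusted p = 0.000502).

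Of 7 measured genes known to be high in microglia, P2RY12 was called higher in brain (5.61 ± 1.86, 3.55-fold, adjusted p = 4.3e-05), with array 1 at 8.30. Without that array its difference was 0.93 (1.91-fold, adjusted p = 0.000156). All spleen arrays (5.32 to 7.01) lay above the other 3 brain arrays, and 3 of the 7 genes were called higher in spleen. P2RY13 (-0.44) and OLFML3 (-0.66) were called lower, and they are named here after their values were seen. TMEM119 (3.77 ± 0.10), SALL1 (3.75 ± 0.06) and ITGAM (3.45 ± 0.14) read at the level of most probesets in brain, and none was called. The CSF1R ligand IL34, known from neurons, was 5.41 ± 0.11 in brain and its difference was not called (0.78, adjusted p = 0.0045). It was called higher in spleen, by 2.81. None of the 9 ligands and receptors in the colony-stimulating factor list was called in brain.

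**Figure D4:**
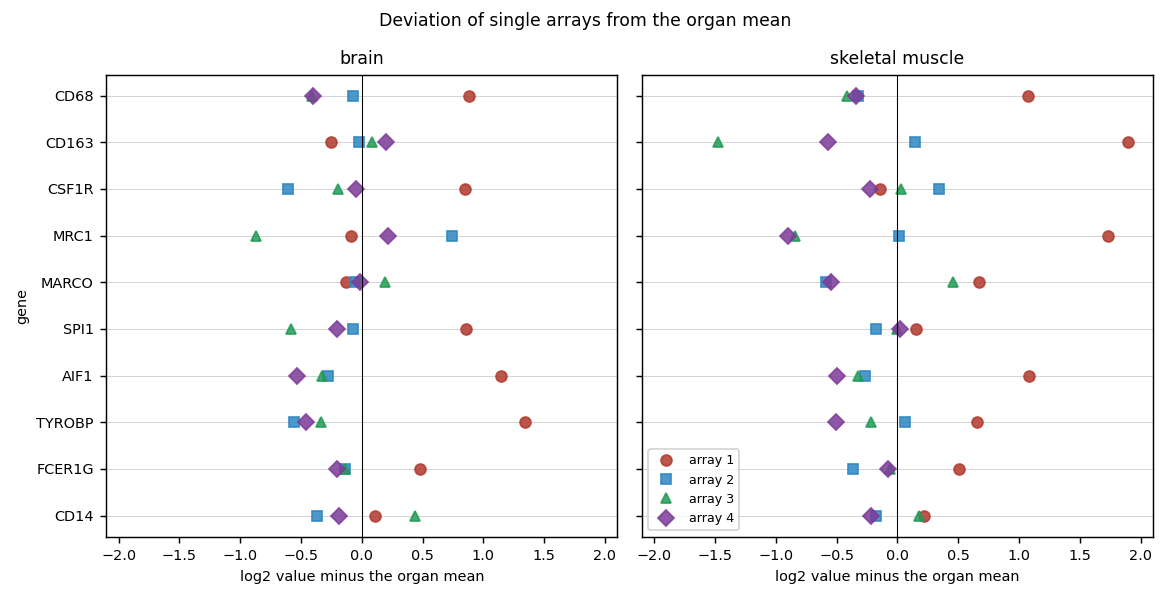
Log2 value minus the mean of the organ (horizontal axis) for the 10 genes (vertical axis) on the 4 brain and the 4 skeletal muscle arrays, with a colour and shape for each array. Brain array 1 is highest for 6 genes and skeletal muscle array 1 for 9, and both have a median deviation of 0.66.

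In heart, jejunum, kidney, pancreas and skeletal muscle the organ means of the members ran from 3.69 (FCER1G in heart and kidney) to 6.37 (MRC1 in jejunum), and no member was called in any direct comparison between 2 of these 5 organs, where 15.5% of the combinations of gene and organ pair were. Against the other 9 organs, 6 were lower in heart (background 8.38%), 3 in jejunum (4.18%), 6 in kidney (4.78%), 5 in pancreas (14.3%) and 5 in skeletal muscle (10.1%). TYROBP was lower in all 5, by 1.19 in pancreas to 1.95 in skeletal muscle, and AIF1 in all but jejunum. FCER1G and MRC1 were called lower in none of them.
These directions depend on the scaling. When the arrays were instead aligned on the median of 13 housekeeping genes, this moved the median difference of all genes to 2.27 in pancreas, and there 5 members were then called higher and 0 lower. The same shift moved that median to -1.25 in kidney and -1.08 in heart, with all 10 members called lower in both. The share of all genes called under this shift was not computed. The count in pancreas also fell to 1, 2 and 1 without pancreas array 1, 2 and 3, and to 3 with lung arrays 1 and 3 left out. In skeletal muscle it fell to 3 without array 3 or 4, and to 0 with array 2 alone, which was assumed to vary like the other arrays, and in jejunum it rose to 5 without liver array 3.

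Skeletal muscle array 1 was the highest of its organ for 9 of the 10 genes, with CSF1R the exception. CD68 read 5.68 against 4.19 to 4.28 on the other 3 arrays, AIF1 5.67 against 4.09 to 4.32, CD163 6.5 against 3.12 to 4.74, and MRC1 7.42 against 4.79 to 5.71. The C1q chains averaged 7.79 there against 5.39 to 5.89, the iron recycling list 6.91 against 6.06 to 6.15, and the mast cell list 4.49 against 3.68 to 3.87. The T and NK cell list (4.02 against 3.75 to 4.07) lay within the range of the others. The muscle markers were as high as elsewhere, with MYH2 at 13.28 against 12.89 to 13.29. The median deviation over all genes on this array was 0.08, and that over the 10 members 0.66. The pancreas markers were higher on arrays 3 and 4 than on array 1. The part of tissue composition was not tested.

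Lymph node array 3 lay below the organ mean for 9 of the 10 members and was lowest for 6, CD163 (3.85), MRC1 (5.27), MARCO (7.79), CSF1R (5.77), AIF1 (7.53) and CD14 (5.66). CD68 (6.67), SPI1 (6.87), TYROBP (7.66) and FCER1G (4.48) lay within the range of the other lymph node arrays. The endothelial and macrophage receptor gene STAB1 was also lowest there (7.94, 8.12, 4.96 and 7.20), as did the fibronectin gene FN1 (8.27, 8.21, 4.18 and 6.68). The mean of the sinusoid and lymphatic endothelium list was 3.81 on this array against 4.47 to 5.11. The B cell list averaged 7.68 against 6.03 to 6.66, with CD79A at 9.63 against 4.89 to 5.38. The part of tissue composition in these values was not tested. Lung array 2 lay below the organ mean for all 10 members and was lowest for 8, with a median deviation of -0.48.

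Across the 10 organ means the 45 pairs of members correlated with a median r of 0.785. The closest pair was CD68 with CSF1R (0.981) and the most distant MRC1 with FCER1G (0.113). After each array was taken relative to its organ mean, the median over the 39 arrays was 0.374 and 43 of the 45 pairs stayed above 0. AIF1 with TYROBP (0.781) and CD163 with MRC1 (0.74) were then the closest. The value for CD163 with MRC1 was 0.559 without lymph node array 3 and skeletal muscle array 1, and in lung the 2 genes did not follow each other. CSF1R with FCER1G was lowest at -0.342. Arrays share dogs and normalisation, and these values are descriptions only. Where a gene had more probesets, these followed each other over the 39 arrays, with r of 0.962 for CD68, 0.925 for CSF1R, 0.986 for MARCO, and 0.946, 0.878 and 0.711 for CD163. The calls in single organs were not always the same, as for CD68 and CSF1R in liver and CD163 in lung. The last of these CD163 probesets was dim, with organ means between 3.35 and 3.72.

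The genes most like each member were ranked by Pearson's r over the 39 arrays. CD68 was followed by the costimulatory ligand CD86 (r = 0.947) and the phagosomal metal transporter SLC11A1 (0.919), and SLC46A2 (0.908). SLC11A1 was also nearest to CD163 (0.919), before the scavenger receptor MSR1 (0.878) and RARRES2 (0.868). CSF1R was nearest to the inhibitory receptor LAIR1 (0.92), CD86 (0.915) and LOC478984 (0.907), and TYROBP to CD86 (0.917), CLEC12A (0.911) and CXCL16 (0.891). AIF1 went with the 3 C1q chains, C1QC (0.962), C1QB (0.953) and C1QA (0.942). MARCO went with CD5L (0.933), a protein secreted by macrophages, with properdin, CFP (0.923), and with STAB1 (0.9). SPI1 was nearest to TGFB1 (0.936) and the kinases SYK (0.935) and LYN (0.934). FCER1G was nearest to TREM2 (0.895), a receptor that signals through TYROBP, and to CCL3 (0.865) and PIM1 (0.858).
The nearest genes of MRC1 were the matrix genes POSTN (0.834) and FN1 (0.786) and the mast cell protease gene CMA1 (0.785). POSTN was 8.47 in lung and 7.39 in liver on average and 3.62 in spleen.

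Genes of the same pathways were counted in lists chosen for their roles. Of all genes, 6.94% were higher in spleen, 7.81% in liver, 12.4% in lymph node and 8.59% in lung, and small counts such as 2 of 12 or 1 of 7 lie near these shares. Of 10 measured receptors and kinases that work with the adaptors TYROBP and FCER1G, 8 were higher in spleen, 6 in lymph node and 4 in lung, and none in liver. LYN, a kinase that phosphorylates ITAMs, reached 9.75 ± 0.26 in spleen (20.5-fold, adjusted p = 1.8e-16). The kinase SYK reached 8.38 ± 0.53 in spleen (10.8-fold, adjusted p = 1e-13) and had a higher mean in lymph node (8.73). The part of lymphocytes in these ITAM values was not tested. The 3 C1q chains were each higher in spleen, liver and lymph node, with C1QC at 12.64 ± 0.15 in spleen (25.5-fold, adjusted p = 2.4e-11), and none was called in lung. Liver was thus higher for C1q, as it was for AIF1, MARCO and CD163. Its count of 0 of 10 ITAM genes lies near the share of 7.81% over all genes.

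Of 12 further scavenger and uptake receptors, 7 were higher in spleen, 6 in liver, 6 in lymph node and 2 in lung. In lung these were CD36 (10.28 ± 0.27, 6.6-fold, adjusted p = 0.00046) and VSIG4 (5.91 ± 0.43, 1.96-fold, adjusted p = 2.5e-06). For CD36 lung ranked 3rd among the organs. Of 11 lysosomal genes that accompany CD68, 6 were higher in spleen, 5 in lung, 5 in lymph node and 2 in liver. In kidney, where no member was higher, 3 of these 11 were (background 8.92%). GPNMB (8.28 ± 1.06, 19.9-fold, adjusted p = 3.1e-10) and NPC2 (11.45 ± 0.12, 11.2-fold, adjusted p = 2e-15) were highest in lung, an organ in which CD68 itself was not called. Of 8 genes high in alveolar macrophages, CHI3L1 (10.38 ± 0.41, 84.6-fold, adjusted p = 1.1e-23) and CD9 (8.64 ± 0.35, 3.34-fold, adjusted p = 5.7e-05) were higher in lung, and 4 were higher in spleen.

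Of 8 genes of iron recycling, 6 were higher in spleen, 4 in liver, 3 in kidney (background 8.92%), 2 in lymph node and 1 in lung. SPIC, the transcription factor of red pulp macrophages, was 10.39 ± 0.83 in spleen (91.4-fold, adjusted p = 3.4e-20) and 3.72 to 4.39 on the liver arrays. It was the 1 gene called higher in spleen among 7 measured myeloid transcription factors, and the iron exporter SLC40A1 was 10.93 ± 0.52 in spleen (8.75-fold, adjusted p = 7.3e-08). The ferritin chain FTH1, named after its values were seen, was lower in spleen (-1.20) and higher in liver (1.79). Of 5 partners of CD14 in lipopolysaccharide recognition, LY96 (6.43 ± 0.32, 2.1-fold, adjusted p = 7.9e-05) and TIRAP (4.40 ± 0.37, 1.43-fold, adjusted p = 6.1e-05) were higher in liver, where LY96 ranked 4th among the organs. More of them, 3 of 5, were higher in spleen and in lymph node, and the median difference of the list was 1.51, 0.72 and 0.52 in spleen, lymph node and liver. Of 5 subunits of the phagocyte oxidase, 3 were higher in spleen, 4 in lymph node, 3 in lung and 1 in liver. CYBB was 9.39 ± 0.72 in spleen (8.71-fold, adjusted p = 8.2e-10), which ranked 2nd among the organs.

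**Figure D5:**
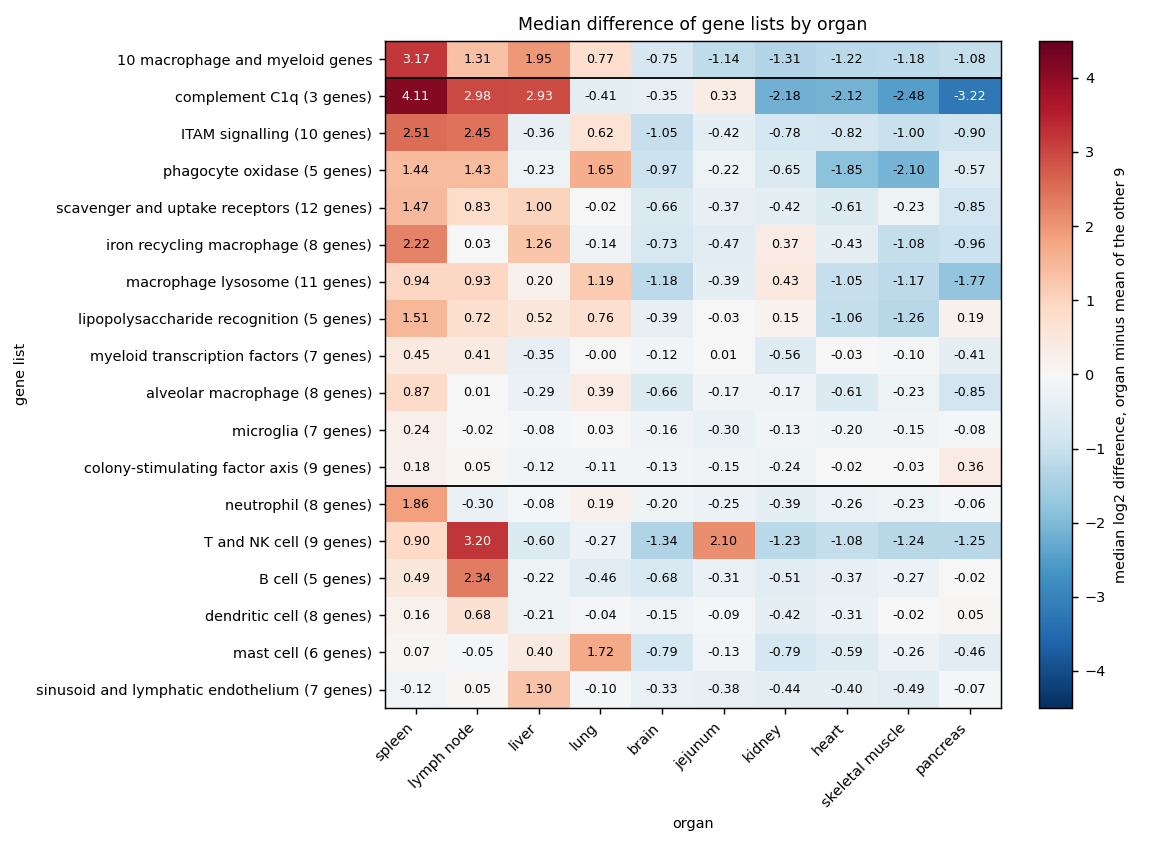
Median log2 difference between an organ and the mean of the other 9 organs, by gene list (rows) and organ (columns), for the 10 members (top row), lists of related function (middle) and lists of other cell types (bottom). Spleen reads 3.17 for the members and 1.86 for the neutrophil list, and lymph node 1.31 for the members and 3.20 for the T and NK cell list.

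Markers of some other cell types were higher in organs where members were, and others were not. In jejunum, where no member was higher, 5 of 9 T and NK cell genes were (background 8.15%), and in lung 0 of 9 were. In spleen 7 of 8 neutrophil genes were higher, and their mean on an array was 6.60 to 7.45. In lung 2 of them were, S100A8 and S100A9, with list means of 5.67 to 6.36. S100A8 reached 11.60 ± 0.34 in spleen (46.4-fold, adjusted p = 7.45e-13). Neutrophils and monocytes share SPI1, TYROBP, FCER1G and CD14, and the part of these cells in the spleen and lung values was not tested. In lymph node, where 5 members were higher, all 9 T and NK cell genes and 4 of 5 B cell genes were higher. So were 3 of 8 dendritic cell genes, but no neutrophil gene was higher. The part of lymphocytes and dendritic cells in the lymph node values, SPI1 among them, was not tested. In lung 4 of 6 mast cell genes were higher, with CPA3 at 8.03 ± 1.30 (16.5-fold, adjusted p = 2.8e-10) and list means of 5.0 to 6.27, and mast cells also carry FCER1G, which was not higher there.
In liver all 6 hepatocyte genes and 4 of 7 genes of sinusoid and lymphatic endothelium were higher. The latter averaged 5.08 to 5.39 on the liver arrays, with FCN2 at 7.61 ± 0.49 (11.3-fold, adjusted p = 3.7e-23). Sinusoid endothelium is a known source of MRC1, and hepatocytes can make CD14. Their part in the liver values was not tested. In lung, where MRC1 was highest, 1 of the 7 endothelial genes was higher (background 8.59%). This was LYVE1 at 8.34 ± 0.33 (22.5-fold, adjusted p = 8.2e-12). The part of endothelium in the lung values was also not tested.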

How the data were processed

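RNA of 10 canine organs was hybridised to Affymetrix Canine arrays. The deposited log2 values are the authors' RMA values from Partek. Probes were first adjusted for their sequence and GC content, then background corrected and quantile normalised, and summarised for each probeset by median polish, with 1 pancreas array left out. Values were used as deposited. Quantile normalisation gives all arrays the same distribution, so a value is relative to its array and not an amount of RNA. Signals near background are compressed, and precision is limited by the small number of arrays.

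Gene symbols came from the platform's probe table, in which 29254 probesets carry 1 symbol, 439 several and 13167 none. By gene ID, 9 of the 10 members were found under the same symbol in a RefSeq table of another assembly, so no positions or sequences are given.

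A mean per organ was fitted with limma 3.58.1 in R 4.3.3 over all 42860 probesets and 39 arrays. The moderated F test, the contrast of an organ with the unweighted mean of the other 9, and all 45 organ pairs were adjusted by Benjamini-Hochberg over all probesets, at a false discovery rate of 0.001, as in the study's methods. Scan date, a factor in those methods, is not in the labels and was not used. A count over genes takes the probeset with the highest mean. SD is between arrays of an organ, and SE comes from limma's pooled variance. Arrays of an organ are from different dogs per the study's methods, but organs share dogs. On simulated data, 73.1% of 67 probesets with a 2-fold change in spleen, 95.5% of 67 with 4-fold and 100% of 66 with 16-fold were recovered. For lung the shares were 67.2%, 95.5% and 100%. The simulated arrays had no other organ differences, unlike the real data, so the shares may not carry over.

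The members and all lists were chosen with earlier results of these data known, so no list was tested as a set. Named are all members, up to 4 genes of each list with the largest difference in the organ of the list, up to 3 genes of each list of other cell types with the highest organ mean, and for each member the 3 genes with the highest Pearson's r over the 39 arrays. ALB, TTR, MBP and SNAP25 are markers on those lists. Other genes are named as chosen after their values were seen.

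Alternatives were the replicate number as a block, array shifts to housekeeping genes or to the median, a variance trend, removal of dim probesets, the mean of a gene's probesets, no pancreas arrays, a false discovery rate of 0.05, a reference of the 5 organs poor in these genes, and leaving out each array. Averaging lung arrays 1 and 3, leaving out both, and leaving out skeletal muscle arrays 1, 3 and 4 were added after seeing the data.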

Additional observations from a re-analysis of the deposited data

Results flagged for a closer look

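Within an organ, 9 of 90 groups of 4 arrays held an array far from the other 3. Independent normal values would give about 1 in 20. The groups share arrays and the genes are correlated, so the count cannot be set against that rate. Brain array 1 was high for TYROBP (7.42, others 5.52 to 5.74), AIF1 (6.65, others 4.98 to 5.23) and FCER1G (4.20, others 3.51 to 3.58). Skeletal muscle array 1 was high for CD68 (5.68, others 4.19 to 4.28) and AIF1 (5.67, others 4.09 to 4.32). CD68 on liver array 1 read 7.96 (others 5.86 to 6.20). In lung, CD163 was low on array 2 (6.93, others 7.82 to 7.87) and MRC1 high on array 4 (9.73, others 8.92 to 8.96), in groups that hold the near-identical lung arrays 1 and 3. MRC1 was low on jejunum array 4 (5.40, others 6.63 to 6.75).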

How the results depend on the processing

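The 8 members higher in spleen, the 5 higher in liver and all 10 F test calls kept their number on leaving out any array, and none of the 25 called values in the 5 organs with resident macrophages changed direction in any setting run. On leaving out single arrays, counts ran from 3 to 5 higher in lung, 4 to 6 higher in lymph node, 1 to 3 lower in brain, 4 to 6 lower in heart, 2 to 5 lower in jejunum, 4 to 6 lower in kidney, 1 to 6 lower in pancreas and 3 to 6 lower in skeletal muscle, and the direct pairs from 49 to 55. With the replicate block, 5 members were lower in jejunum and no other count moved by over 1.5 times, and CD68 in liver was called higher (1.09, adjusted p = 0.000149), as it was with the mean of its probesets (1.32, adjusted p = 0.000225). The main fit did not take the numbers to pair the arrays, since all correlations of same-numbered deviations passed 0.1 in only 4 of 45 organ pairs. That rule is strict, as 1 low correlation fails an organ pair. Of the 39 arrays, 30 correlated best with their own number, and the median r was 0.138 for the same number and -0.049 for other numbers. The number may therefore stand for a dog, which the labels do not settle. With the housekeeping shift, 10 members were lower in heart, 5 in jejunum, 10 in kidney, 0 in pancreas and 2 in skeletal muscle, and 5 were higher in pancreas. With the mean of a gene's probesets, and with lung arrays 1 and 3 left out, 3 were lower in pancreas. With skeletal muscle arrays 1, 3 and 4 left out, 0 were lower in skeletal muscle, with 1 array in that group. At a rate of 0.05, 6 were lower in brain, 7 in jejunum, 9 in pancreas and 8 in skeletal muscle, and 8 higher in liver. Against the 5 organs poor in these genes, 1 was higher and 0 lower in brain, and 8 were higher in liver, 9 in lung and 8 in lymph node. These 5 organs are low in the members as a group, so higher calls against them are partly built in. For the alternative settings the share of all genes called was not computed, so their counts stand without a background. The cause of the changes in count was not tested.

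No value that changed sign was called in the main comparison. Under the housekeeping shift they were CD14 in brain (-0.21) and lymph node (0.12) and AIF1 in lung (0.52), with the mean of probesets CD163 in lymph node (-0.087), and without the pancreas arrays MARCO in lung (-0.088). Against the 5 poor organs they were CD68 (0.38), CSF1R (0.80), AIF1 (0.99) and TYROBP (0.82) in brain, SPI1 (0.41) and FCER1G (0.24) in liver, AIF1 in lung (1.52) and CD14 in lymph node (0.86). Without single arrays they were CD14 in brain without brain array 3 (-0.025), FCER1G in liver without liver array 2 (0.060, range from -0.22), AIF1 in lung without lung array 2 (0.11), MARCO in lung without lung arrays 3 (-0.0027) and 4 (-0.094, range up to 0.28), CD163 in lymph node without lymph node arrays 1 (-0.19) and 2 (-0.14), and CD14 in lymph node without lymph node arrays 3 (0.041) and 4 (0.03, range from -0.22).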
